A study of Mus musculus with 38 samples.

Results

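Translation factors are the proteins that bring an mRNA, the initiator tRNA and the ribosome together and then move the ribosome along the message. Promoters of their genes were examined in soleus muscle of mice that passed through fasting-induced torpor, a state of strongly lowered metabolism. The promoters were chosen by position and name. A promoter here is a cluster of CAGE tags, that is, sequenced 5′ ends of capped RNA, whose representative position lay within 500 bp, on the same strand, of an annotated 5′ end of a protein-coding gene with a symbol beginning *Eif1* to *Eif6*, *Eef1* or *Eef2*, leaving out *Eif4ebp1*. This rule took 64 promoters of 60 genes out of 10819 promoters in the table. Of the 67 annotated genes that the rule covers, 7 had no promoter in the table (*Eef1akmt3*, *Eef1akmt4*, *Eif2ak3*, *Eif2ak4*, *Eif4e1b*, *Eif4ebp3* and *Eif5a2*). *Eef1g*, *Eif2b4*, *Eif4e* and *Eif4e2* each had 2, written p1 for the stronger in experiment #1 and p2 for the weaker. The median distance to the annotated 5′ end was 12.5 bp, and 58 promoters lay within 100 bp. The farthest members were *Eif2b4* p2 at 270 bp and *Eef1a2* at 266 bp, with mean levels of 9.45 and 317.5 TPM, and the nearest promoter outside the window lay 981 bp from an *Eef1a2* 5′ end with 11.4 TPM.

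All animals were wild-type C57BL/6J young adult males with no genetic change, and each library came from 1 mouse. In experiment #1, Pre mice (n = 4) were taken on day 1 with free access to food, Mid mice (n = 8) on day 2 after food was withdrawn at low ambient temperature, and Post mice (n = 4) on day 3 after food was returned. HiT mice (n = 4) were kept at high ambient temperature on day 2. The study describes them as fasted and refers to the group as starvation alone, while the deposited design text records food. They are taken as fasted here. Fed mice (n = 4) were kept at low temperature on day 2 with food, although 1 label of these samples reads starvation. Dep mice (n = 4) were fasted on day 2 and kept from entering torpor by gentle touching. By the study's methods ambient temperature was set before recording began and then kept constant. Experiment #2 repeated Pre (n = 2), Mid (n = 5) and Post (n = 3). Its Pre libraries and all Mid libraries but Mid 13 were run in lane 3, and Mid 13 and the Post libraries in lane 4, so that lane and group cannot be told apart for most of its Mid to Post comparison. Mid mice were killed at varying metabolic rate, in or between bouts of torpor. Libraries held 18257657 to 39176649 tags in experiment #1 and 9359994 to 20914855 in experiment #2, and the lowest count of any of the 64 promoters in any library was 10. Levels are given as TPM, the tags of a promoter scaled to a common library total, after TMM scaling within an experiment unless stated otherwise. Since each transcript gives 1 tag whatever its length, levels of different genes can be set side by side.

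As background, translation starts when eIF2 carries the initiator tRNA to the small ribosomal subunit, on which eIF1, eIF1A, eIF3 and eIF5 assemble. The eIF4 proteins bind the cap of the mRNA and unwind its leader, eIF5B joins the large subunit, and then eEF1A brings each aminoacyl-tRNA while eEF2 moves the ribosome. The pathway is throttled at known points: kinases that phosphorylate eIF2α block its nucleotide exchange factor eIF2B, the 4E-BP proteins sequester the cap-binding protein eIF4E, and eEF2 kinase inactivates eEF2. In adult muscle eEF1A is made mainly from *Eef1a2*, whereas most other tissues use *Eef1a1*.

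Several of these genes carry the sequence feature known as a 5′ terminal oligopyrimidine (TOP) tract, a transcript start at C followed by a run of C and T, through which mTOR controls the translation of the mRNA. The start base was read 2 bases downstream of the listed position, since a pyrimidine before the start and a purine at the start were found there for 74.4% of promoters on the plus strand and 71.7% on the minus strand, against 4.19% to 22.2% at the other offsets from -4 to 5. Sequences were taken from RefSeq promoter windows on GRCm38.p6 and from GENCODE vM21 transcripts, both of the mm10 build, and were found for 61 of the 64 promoters. A start at C with an unbroken pyrimidine run of at least 5 bases was present at 9 of 61 translation factor promoters (14.8%) and at 215 of 9336 promoters of all genes (2.3%). Printed 5′ to 3′, 25 bases from 10 before the start are shown for members of this kind, with capitals marking the pyrimidine run.
Eef2, chr10:81176636-81176660, plus strand: cgtcagcggtCTCTTCCgccgcagc
Eif3f, chr7:108934407-108934431, plus strand: taggctctctCTCTTTCTCggcaag
Eif3h, chr15:51865469-51865493, minus strand: cctcacgcttCTCTTTCTTCCTgtc
Eif3e, chr15:43282694-43282718, minus strand: aacaagcgctCCTTTCCCCCggcaa
Eif4a2, chr16:23107748-23107772, plus strand: gtccgcctgtCTTTTCagtcgggcg
Eif2s3x, chrX:94212637-94212661, minus strand: gagcattttcCTTTTCTCTCCgagc
The others were *Eif2a*, *Eif3i* and *Eif3k*. Starts at T with a run of 5 or more fell outside this definition, and 3 examples from the eEF1 group are shown. The 2-base offset was set on starts at a purine. A start within a pyrimidine run could therefore be read some bases off, and these 3 may be classed wrongly.
Eef1a1, chr9:78481655-78481679, minus strand: tggacgttctTTTTCgcaacgggtt
Eef1b2, chr1:63177118-63177142, plus strand: acgctctgggTCCTTTTTTTCCCTC
Eef1g p1, chr19:8967188-8967212, plus strand: ccacccccttTCTCTgcggaatcac
The muscle form *Eef1a2* and 5 promoters called from Pre to Mid are shown for comparison. These 5 start at a purine, the single capital, whereas *Eif4a2* above and *Eef1akmt1*, also called, start at C.
Eef1a2, chr2:181156732-181156756, minus strand: caccagtcctTCTgactgagtcctc
Eif3a, chr19:60790637-60790661, minus strand: cttcctttccGtctctggccggctg
Eif5b, chr1:37998114-37998138, plus strand: ctgagggctcAcaccatatgtgccc
Eif4a1, chr11:69672301-69672325, minus strand: actccgccctAgattctaaggatca
Eif4e p1, chr3:138527276-138527300, plus strand: gtgcgatcagAtcgatctaagatgg
Eef1e1, chr13:38658984-38659008, minus strand: gagctgggccAgaagatggcggcgg

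Mean levels over the 28 libraries of experiment #1 spanned from 3.94 TPM at *Eif1* to 580.5 at *Eef2*, here before TMM scaling. After *Eef2* came *Eif5a*, whose product eases the joining of difficult peptide bonds, with 435.6, *Eif4g2*, a scaffold for cap-independent initiation, with 424.7, and *Eef1a2* with 317.5. The eIF3 subunit gene *Eif3f* had 266.1, the helicase cofactor *Eif4h* 210.7 and the scaffold *Eif4g1* 189.0. The 4 promoters of eIF2 subunits lay close together, from 41.75 at *Eif2s3y* to 48.76 at *Eif2s1*, whereas the 6 of eIF2B ranged from 8.69 at *Eif2b3* to 38.21 at *Eif2b5*. *Eef1a1* had 13.67, far below *Eef1a2*. *Eef1a1* and *Eif1*, like *Eif4a1* and *Eif3j1* with *Eif3j2*, have near-identical copies elsewhere in the genome, so their levels are uncertain where tags map to several places.

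**Figure D1:**
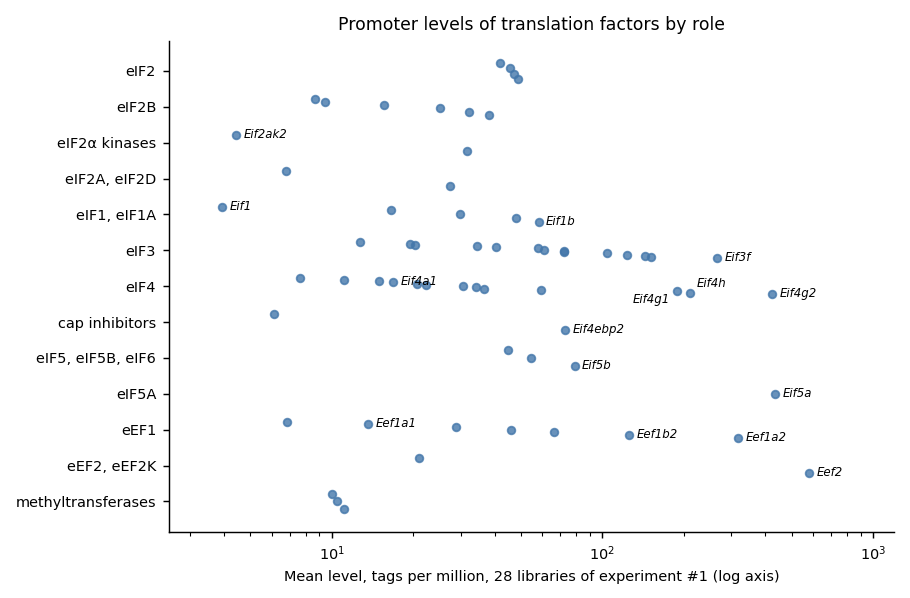
Mean level of each of the 64 promoters over the 28 libraries of experiment #1 in TPM on a log axis, with 1 row per role in translation and 1 point per promoter. *Eef2*, *Eif5a*, *Eif4g2* and *Eef1a2* sit at the right, and *Eif1* with 3.94 and *Eif2ak2* with 4.43 at the left.

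Levels of several members differed between the experiments, also within 1 condition. *Eif1*, whose product guards start codon choice, ranged from 2.57 to 5.66 TPM in the 16 Pre, Mid and Post libraries of experiment #1 and from 371.2 to 562.7 in the 10 of experiment #2, a ratio of means of 127.5. In the other direction *Eif4b*, the helicase activator, had 36.5 on average in experiment #1 and 3.98 in experiment #2, and *Eef1akmt1* had 11.3 and 1.49. *Eif4e* p1 belonged here too, with 14.9 and 3.69. These 4 differed by more than 4-fold (6.25% of the 64, against 4.87% of 10570 promoters with at least 100 tags in both experiments), and 15 differed by more than 2-fold (23.4% against 16.3%). The study's methods name both NextSeq and HiSeq platforms for the sequencing of experiments #1 and #2. The cause of these level differences was not tested, and folds were fitted within an experiment.

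As a check of the tissue, the 8 slow-fibre markers summed to 13220 to 23280 and the 9 fast glycolytic fibre markers to 17370 to 26270 TPM in experiment #1. With no other muscle among the samples these sums do not tell soleus from another muscle. HiT muscles stood apart in their marker levels. The 7 macrophage markers with a promoter (*Adgre1* had none) summed to 106.5 to 222.8 in HiT and to 35.5 to 69.4 in every other group of experiment #1, and slow-fibre markers had a median of 14510 in HiT against 18000 to 20340 in those groups. In experiment #1, red blood cell markers reached 13750 and liver markers 265.6 in Fed, and neutrophil markers 153.3 in 1 Dep library. Liver markers in experiment #2 summed to 125.7 and 175.8 in the Pre libraries and reached 517.5 in Mid and 1210 in Post. In HiT 4 the 10 strongest promoters took 40.29% of tags, the most of all libraries. In bulk muscle, fewer cells of a type and less RNA per cell cannot be told apart.

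Comparing Pre with Mid set fed mice of day 1 against fasted mice of day 2 that entered torpor. Food, torpor and day changed together and cannot be told apart here. At a false discovery rate (FDR) below 0.05, adjusted over all 10776 promoters tested in experiment #1, 10 members were higher in Mid and 13 lower, together 35.9%, beside 30.2% of all promoters (15.4% higher and 14.8% lower). Changes were small: the median absolute log2 fold change of the members was 0.15, and that of all promoters 0.20. The largest rises were at *Eif5b*, *Eif4a1*, *Eif3a*, *Eif2b4* p2 and *Eif4a2*, and the largest falls at *Eef1g* p2, *Eif4e* p2, *Eef1akmt1*, *Eef1e1* and *Eef2k*. With upper-quartile scaling the split was 7 higher and 18 lower, beside 11.9% and 21.4% of all promoters, and without TMM scaling 2 and 5, beside 4.96% and 8.57%.

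*Eif5b*, the GTPase that joins the large subunit, had the largest rise. Its levels were 58.57, 56.1, 55.21 and 53.01 TPM in Pre and 69.6 to 112.5 (median 90.6) in Mid. Every Mid library exceeded every Pre library, and the log2 fold change was 0.70 ± 0.11 (SE, FDR 2.12e-05). After refeeding the 4 Post libraries read 59.05, 69.57, 54.33 and 68.96, below the lowest Mid library at 69.64, with a log2 fold change of -0.53 ± 0.11 (FDR 0.000385). The same promoter was also high in Fed, at 89.8, 85.2, 87.1 and 90.1, well clear of Pre (log2 fold change 0.66 ± 0.12, FDR 0.00584) and inside the Mid range. In experiment #2 the Pre to Mid value was 0.26 ± 0.15 and was not called (FDR 0.297).

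*Eif3a*, the largest subunit and scaffold of eIF3, was higher in Mid than in Pre, Post, HiT and Fed. Pre libraries had 57.9, 61.3, 56.6 and 64.8 TPM, Mid libraries 73.4 to 95.3 (median 83.5) and Post libraries 60.5, 58.0, 55.3 and 53.5. The Mid libraries lay above all Pre and Post libraries, with log2 fold changes of 0.50 ± 0.07 from Pre to Mid (FDR 4.34e-06) and -0.58 ± 0.07 from Mid to Post (FDR 3.41e-07). HiT libraries had 73.0, 74.0, 73.2 and 72.4, at the lower edge of Mid (HiT to Mid 0.22 ± 0.07, FDR 0.0107), and Fed libraries had 55.6, 57.2, 61.3 and 61.4, under all Mid libraries (Fed to Mid 0.53 ± 0.07, FDR 1.64e-06). In experiment #2 the 2 Pre libraries read 115.8 and 96.2 and the 5 Mid libraries 131.9 to 167.0 without overlap. That rise of 0.44 ± 0.14 missed the threshold (FDR 0.0751), and the fall to the Post levels of 100.7, 104.7 and 78.3 passed it (-0.60 ± 0.12, FDR 0.00695).

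The helicase pair *Eif4a1* and *Eif4a2*, which unwind the leader of the mRNA, were both higher in Mid than in Pre. *Eif4a2* had 47.2, 49.5, 46.4 and 50.2 TPM in Pre, 49.0 to 72.4 (median 66.55) in Mid and 38.6, 47.9, 41.0 and 42.8 in Post. Of the Mid libraries only Mid 6 reached into the Pre range. The log2 fold change was 0.41 ± 0.10 from Pre to Mid (FDR 0.00214) and -0.59 ± 0.10 from Mid to Post (FDR 3.94e-05). In experiment #2 these were 0.58 ± 0.16 (FDR 0.0404) and -0.80 ± 0.14 (FDR 0.00277). *Eif4a1* had 12.43, 13.27, 10.95 and 13.32 in Pre and 13.5 to 24.3 (median 17.9) in Mid, which did not overlap (0.50 ± 0.13, FDR 0.00354). Post read 14.6, 11.9, 13.2 and 15.2, overlapping Mid, and this lower level was called in experiment #1 (-0.37 ± 0.12, FDR 0.0241), whereas experiment #2 gave 0.01 ± 0.22 (FDR 0.977). HiT stood higher, at 23.4, 23.2, 20.7 and 21.5, and *Eif4a1* was called lower from HiT to Mid. That call was lost without TMM scaling and with a replicate block.

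In contrast, the cap-binding protein gene *Eif4e* was lower in Mid at both promoters. *Eif4e* p2, which lay 249 bp upstream of an annotated 5′ end, downstream of p1, had 11.81, 16.08, 12.01 and 11.01 TPM in Pre and 6.34 to 10.3 (median 7.72) in Mid. Mid libraries lay below all others of Pre, Post, HiT and Fed, with log2 fold changes of -0.69 ± 0.12 (Pre to Mid, FDR 0.000124), 0.85 ± 0.12 (Mid to Post, FDR 6.24e-06), -0.57 ± 0.12 (HiT to Mid, FDR 0.000656) and -0.997 ± 0.121 (Fed to Mid, FDR 9.72e-07). Experiment #2 had 13.4 and 14.9 in Pre, 6.77, 9.66, 4.99, 4.57 and 6.15 in Mid and 11.3, 14.9 and 12.8 in Post. Both steps were called there (-1.13 ± 0.24, FDR 0.0172, and 0.999 ± 0.216, FDR 0.0103). *Eif4e* p1 at the main 5′ end had 18.98, 18.31, 13.47 and 15.62 in Pre and 9.85 to 15.7 (median 12.6) in Mid, with some overlap (-0.40 ± 0.13, FDR 0.0198). It rose again to 16.01, 18.98, 18.98 and 17.85 in Post, above every Mid library (0.51 ± 0.13, FDR 0.00285).

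Among elongation factors, *Eef1e1*, a scaffold protein of the aminoacyl-tRNA synthetase complex, was lower in Mid than in every other group but Dep. It had 31.2, 32.5, 34.7 and 28.7 TPM in Pre, 16.6 to 26.5 (median 21.3) in Mid and 35.6, 36.0, 37.9 and 31.4 in Post. Mid did not overlap Pre or Post (-0.57 ± 0.09, FDR 3.79e-05, and 0.72 ± 0.09, FDR 1.01e-06). HiT stood higher still at 38.1, 39.6, 39.9 and 38.9 (HiT to Mid -0.87 ± 0.09, FDR 2.93e-08), while Fed with 25.41, 21.99, 27.32 and 27.04 overlapped Mid in part (-0.25 ± 0.09, FDR 0.0375). In experiment #2 the Pre to Mid fall was -0.24 ± 0.15 and was not called (FDR 0.353).

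*Eef1g* encodes the γ subunit of the eEF1B exchange factor. Its weaker promoter p2 had 8.003, 8.823, 7.83 and 9.969 TPM in Pre, 3.17 to 8.40 (median 4.45) in Mid and 13.11, 12.98, 9.973 and 8.146 in Post. Mid 6, the library at 8.40, was the single Mid library within the Pre or Post range. The log2 fold changes of -0.86 ± 0.18 (FDR 0.000677) and 1.22 ± 0.18 (FDR 8.78e-06) recurred in experiment #2 as -0.94 ± 0.23 (FDR 0.0284) and 1.21 ± 0.20 (FDR 0.0025). HiT was lowest at 2.69, 3.45, 2.84 and 3.72, below every Pre library (Pre to HiT -1.45 ± 0.22, FDR 1.4e-05), and Fed had 12.9, 8.05, 9.20 and 8.67 (Fed to Mid -1.03 ± 0.18, FDR 8.78e-05). The stronger promoter *Eef1g* p1 moved less, at -0.26 ± 0.08 from Pre to Mid (FDR 0.0139), and experiment #2 gave 0.06 ± 0.10.

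*Eef2* itself, the translocase, did not pass the test in any comparison. Its levels in experiment #1 were 532.0, 515.2, 533.8 and 724.7 TPM in Pre and 517.8 to 601.2 (median 554.9) in Mid. The Mid range lay inside that of Pre, and the log2 fold change was -0.04 with a 95% interval from -0.24 to 0.16. In experiment #2 *Eef2* spread from 148.6 to 676.2 among Mid mice alone, so that the interval there ran from -0.68 to 1.34. The kinase gene *Eef2k* fell, from 27.8, 25.2, 23.5 and 29.3 in Pre to 16.3 to 21.3 (median 18.1) in Mid, with no overlap (-0.52 ± 0.10, FDR 0.000432). It rose in Post to 22.8, 23.1, 25.7 and 22.4 (0.35 ± 0.11, FDR 0.0111), and in experiment #2 the fall of -0.38 ± 0.19 was not called (FDR 0.261). The 3 methyltransferase genes, whose products modify eEF1A and eEF2, all had lower means in Mid: *Eef1akmt1* (-0.61 ± 0.11, FDR 0.000201) and *Eef1akmt2* (-0.29 ± 0.10, FDR 0.0273) were called.

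**Figure D2:**
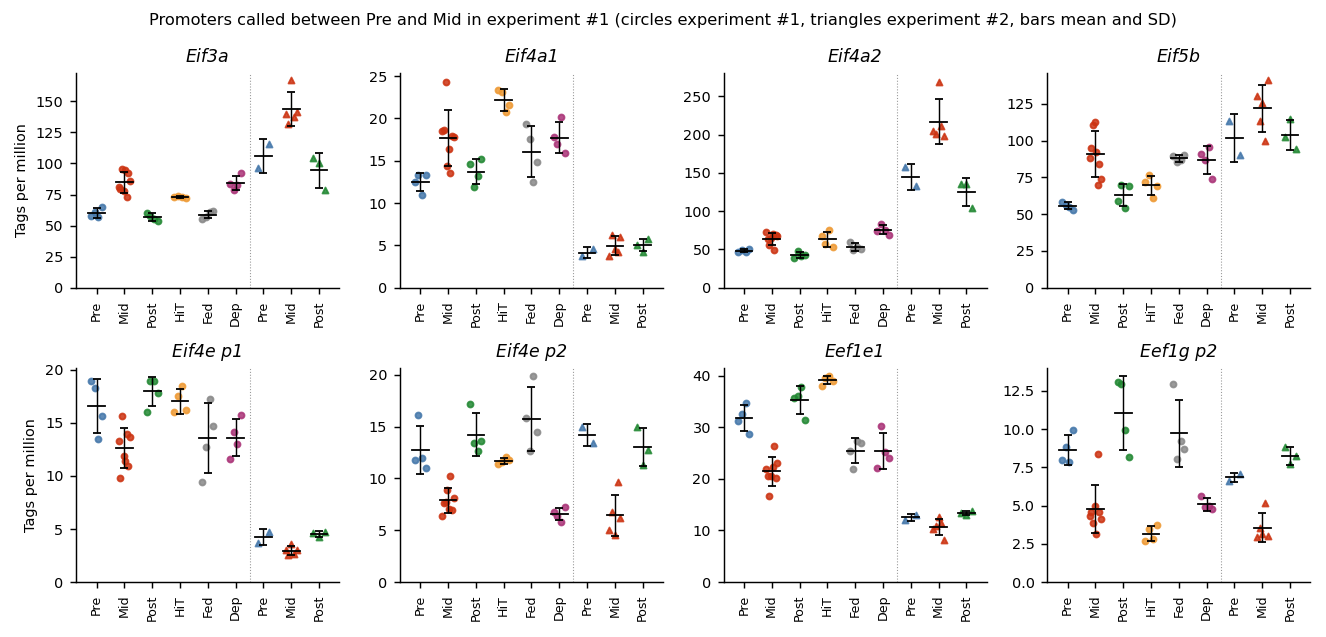
Levels in TPM of 8 promoters called between Pre and Mid, 1 point per library, with circles for experiment #1, triangles for experiment #2, and bars for the mean and SD of each group. *Eif3a*, *Eif4a1*, *Eif4a2* and *Eif5b* have their highest mean in Mid among Pre, Mid and Post of experiment #1, and *Eif4e*, *Eef1e1* and *Eef1g* p2 their lowest.

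Comparing Mid with Post asked what differed after food was returned. Food, torpor and day again changed together and cannot be told apart. From Mid to Post 13 members were higher and 5 lower, 28.1% of the 64, beside 35% of all promoters (17.5% in each direction), and with upper-quartile scaling the split was 18 and 3, beside 23.5% and 13.7%. *Eif3a*, *Eif4a1*, *Eif4a2* and *Eif5b* were higher in Mid than in both Pre and Post, a pattern found in 11.4% of all promoters. Both *Eif4e* and both *Eef1g* promoters, *Eef1akmt1*, *Eef1akmt2*, *Eef1e1*, *Eef2k*, *Eif1ax* and *Eif4e2* p2 were lower in Mid than in both, 10 members beside 10.8% of all promoters. Both steps share the Mid libraries. Between Pre and Post no member was called by edgeR's quasi-likelihood test, beside 1.85% of all promoters (1.05% higher and 0.798% lower), while 8 had an unadjusted p below 0.05. Its likelihood ratio test called 1 (beside 2.28% of all promoters), DESeq2 2 (3.03%) and a joint fit of both experiments 2 (5.68%). Of the 23 members called from Pre to Mid, 22 had the same sign in the separate mice of experiment #2, all but *Eef1g* p1, beside 94% of all promoters called. Of the 18 called from Mid to Post, 15 did, beside 93.6%, and *Eif4a1*, *Eif4b* and *Eef1d* did not. Experiment #2 alone called 5 members from Pre to Mid, beside 9.74% of all promoters (5.3% higher and 4.44% lower). It called 6 from Mid to Post, beside 16.4% (7.73% higher and 8.65% lower), a step that lane largely shares. Within lane 3 the Pre to Mid calls were 1, beside 5.13% of all promoters. No member, and 0 of all 10819 promoters, was called by edgeR for a Pre to Mid change that differed between the experiments, with 3 members at an unadjusted p below 0.05. DESeq2 called 7 promoters, none of them a member.

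The Fed to Mid comparison held ambient temperature low and changed food, and Fed mice did not enter torpor. Food and torpor cannot be told apart in it. In Mid 22 members were higher and 9 lower, 48.4% of the 64 beside 35.2% of all promoters, and the higher members were 34.4% beside 16.6%, with 18.6% of all promoters lower. The median log2 fold change was 0.12 over the members and 0.003 over all promoters. With upper-quartile scaling 18 were higher and 12 lower, beside 12.9% and 22.4% of all promoters. Without TMM scaling, which moved the median of all promoters to -0.12, just 2 were higher and 6 lower, beside 4.72% and 15.5%. Liver markers had a median of 82.91 TPM in Fed and 2.018 in Mid, and red blood cell markers ranged from 2814 to 13750 in Fed and from 2989 to 4238 in Mid. Their part in these results was not tested. By role, 3 of 4 eIF2 promoters, 4 of 6 of eIF2B, 8 of 14 of eIF3 and 3 of 5 of eIF1 and eIF1A were higher in Mid, and the 1 lower among these was *Eif3f*. No promoter of the 7 in the eEF1 group was higher and 2 were lower.

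Among eIF2 genes *Eif2s1*, the α subunit that the stress kinases phosphorylate, had 37.3, 37.1, 46.9 and 41.4 TPM in Fed and 45.7 to 50.9 (median 48.7) in Mid. A single Fed library, Fed 3, reached the Mid range, and the log2 fold change was 0.25 ± 0.06 (FDR 0.00321). *Eif2s2* (0.28 ± 0.10, FDR 0.0245) and *Eif2s3x* (0.29 ± 0.07, FDR 0.00351) were also higher. From the exchange factor eIF2B, *Eif2b4* p2 moved most, with 6.13, 5.16, 7.21 and 7.74 in Fed, 9.55 to 12.6 (median 10.5) in Mid and no overlap (0.70 ± 0.11, FDR 3.08e-05). *Eif2b1* (0.37 ± 0.07, FDR 0.000374) and *Eif2b3* (0.39 ± 0.08, FDR 0.000663) followed, whereas *Eif2b5*, the catalytic subunit, gave -0.04 ± 0.12 (FDR 0.819). In eIF3, *Eif3g*, a subunit that acts in scanning, had 13.2, 13.3, 16.6 and 14.3 in Fed and 18.1 to 22.9 (median 19.2) in Mid, all of them higher (0.48 ± 0.09, FDR 0.000133). *Eif3j2* rose too (0.45 ± 0.09, FDR 0.000501), although *Eif3j1* and *Eif3j2* share near-identical sequence.

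Against Pre, Fed had 6 members lower (*Eif1ad*, *Eif1ax*, *Eif2b1*, *Eif2b3*, *Eif3c* and *Eif3g*) and 1 higher (*Eif5b*), 10.9% of the 64 beside 11.2% of all promoters (5.88% higher and 5.32% lower). The median log2 fold change from Pre to Fed was -0.10 over the members and 0.02 over all promoters, and 20 of 64 members were positive. Leaving out 1 library left as few as 1 call here, so that only *Eif5b* was called in every such fit. With the compared groups alone 1 was called, beside 5.87% of all promoters, and without TMM scaling 0, beside 0.0557%. On the scaffolds of the cap complex, *Eif4g1* was higher in Mid than in Fed (0.24 ± 0.05, FDR 0.000417), with 168.0, 159.3, 176.5 and 175.5 in Fed and 190.1 to 208.7 (median 201.5) in Mid. Its relative *Eif4g3* was lower (-0.39 ± 0.07, FDR 0.000194), at 43.2, 34.9, 33.8 and 38.4 in Fed and 24.7 to 31.7 (median 28.99) in Mid. Neither pair of ranges overlapped.

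**Figure D3:**
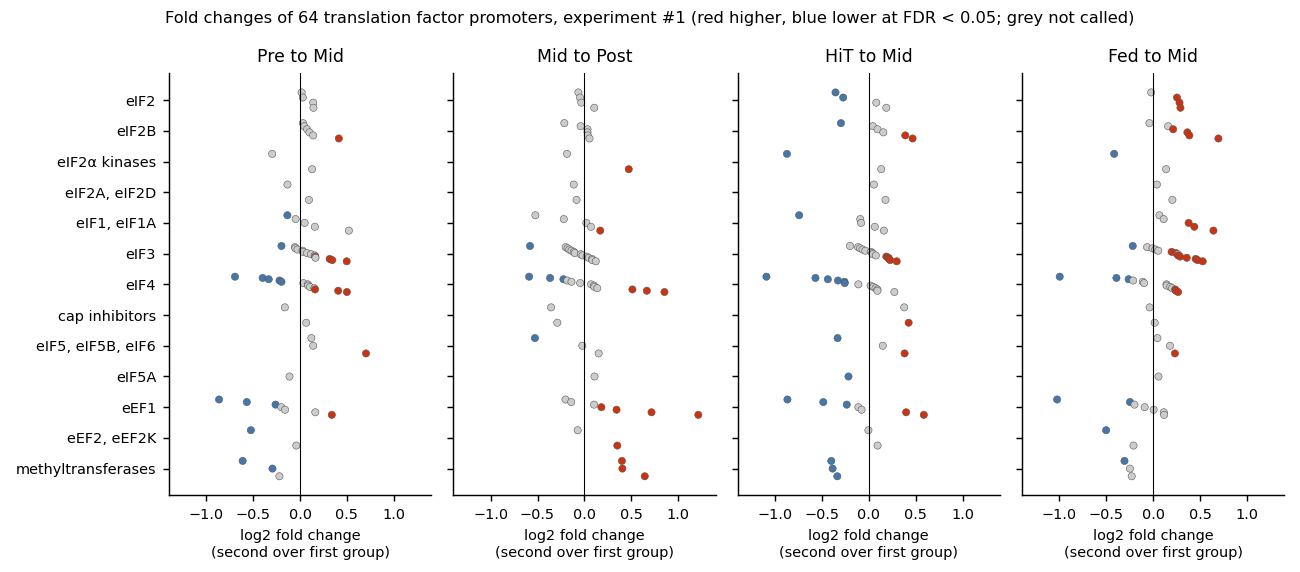
Log2 fold changes of the 64 promoters in 4 comparisons of experiment #1, 1 row per role and 1 point per promoter, red where higher and blue where lower in the second group at FDR < 0.05 and grey where not called. The eIF2, eIF2B and eIF3 rows lean to the right in Fed to Mid, where 22 members were higher, and the eEF1, eEF2 and methyltransferase rows lean to the left in Pre to Mid.

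HiT to Mid compared day 2 mice at high and low temperature. HiT mice did not enter torpor, so temperature and torpor cannot be told apart in it. Here 11 members were higher and 19 lower in Mid, 46.9% beside 41% of all promoters (19.2% higher and 21.8% lower), and without TMM scaling 3 and 5, beside 12.2% and 9.37%. Macrophage marker levels moved with this comparison as given above, and their part in the results below was not tested. *Eif4e2* p2, the second promoter of the gene for the cap-binding repressor 4EHP, had 12.81, 13.99, 9.627 and 11.87 TPM in HiT and 4.74 to 6.38 (median 5.58) in Mid. HiT lay above all Mid and all Pre libraries (HiT to Mid -1.09 ± 0.10, FDR 6.58e-09; Pre to HiT 0.76 ± 0.12, FDR 2.56e-05). *Eif2ak2*, the double-stranded RNA-dependent eIF2α kinase PKR, had 6.43, 7.79, 5.34 and 5.99 in HiT and 2.78 to 4.56 (median 3.41) in Mid (-0.87 ± 0.15, FDR 5.05e-05). *Eif2ak1*, the haem-regulated eIF2α kinase, gave 0.13 ± 0.10 (FDR 0.271) and was called in no comparison. *Eif1a* had 30.9, 27.5, 23.4 and 22.7 in HiT, above every library of the other groups of experiment #1, and fell by 0.74 ± 0.11 on the log2 scale to Mid (FDR 9.69e-06).

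The eEF1A genes differed from Pre in opposite directions in HiT. *Eef1a2* had 340.8, 362.0, 337.3 and 371.1 TPM in Pre, 216.7, 226.4, 274.2 and 214.5 in HiT and 251.7 to 340.5 (median 304.9) in Mid. HiT did not overlap Pre (-0.60 ± 0.10, FDR 2.48e-05) and Mid was higher with an overlap (0.40 ± 0.08, FDR 0.000463). *Eef1a1* had 10.98, 12.23, 9.534 and 10.08 in Pre, 23.7, 20.1, 14.8 and 17.1 in HiT and 10.7 to 16.6 (median 13.1) in Mid. HiT again did not overlap Pre, but from above (0.82 ± 0.14, FDR 6.71e-05), and Mid was lower than HiT with an overlap (-0.49 ± 0.12, FDR 0.00213). Against Pre, Mid gave 0.34 ± 0.13 for *Eef1a1* (FDR 0.041) and -0.20 ± 0.08 for *Eef1a2* (FDR 0.064). In experiment #2 *Eef1a2* fell from 252.0 and 234.8 to 128.9 to 185.6 (median 156.1; -0.61 ± 0.14, FDR 0.0218), and *Eef1a1* gave 0.57 ± 0.23 (FDR 0.159).

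From Pre to HiT 16 members were higher and 8 lower, 37.5% beside 33.4% of all promoters (18.5% higher and 14.9% lower), and without TMM scaling 4 and 4, beside 5.42% and 12.9%. Temperature, day and, as the study describes HiT, food changed together and cannot be told apart. *Eif4a1* rose by 0.83 ± 0.14 (FDR 6.29e-05), *Eif2s1* by 0.50 ± 0.07 (FDR 1.01e-05) and *Eif6*, which keeps the ribosomal subunits apart, by 0.45 ± 0.08 (FDR 9.65e-05). *Eef2k* fell by 0.62 ± 0.12 on the log2 scale (FDR 0.000348). *Eif4ebp2*, an inhibitor of eIF4E, had 77.8, 81.7, 92.2 and 100.3 in Pre and 67.9, 50.1, 63.1 and 53.2 in HiT, with no overlap (-0.59 ± 0.17, FDR 0.0106). In Mid it ranged from 65.4 to 81.7 in all but Mid 3, which had 124.8, and the Pre to Mid value of -0.16 ± 0.15 was not called (FDR 0.438).

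**Figure D4:**
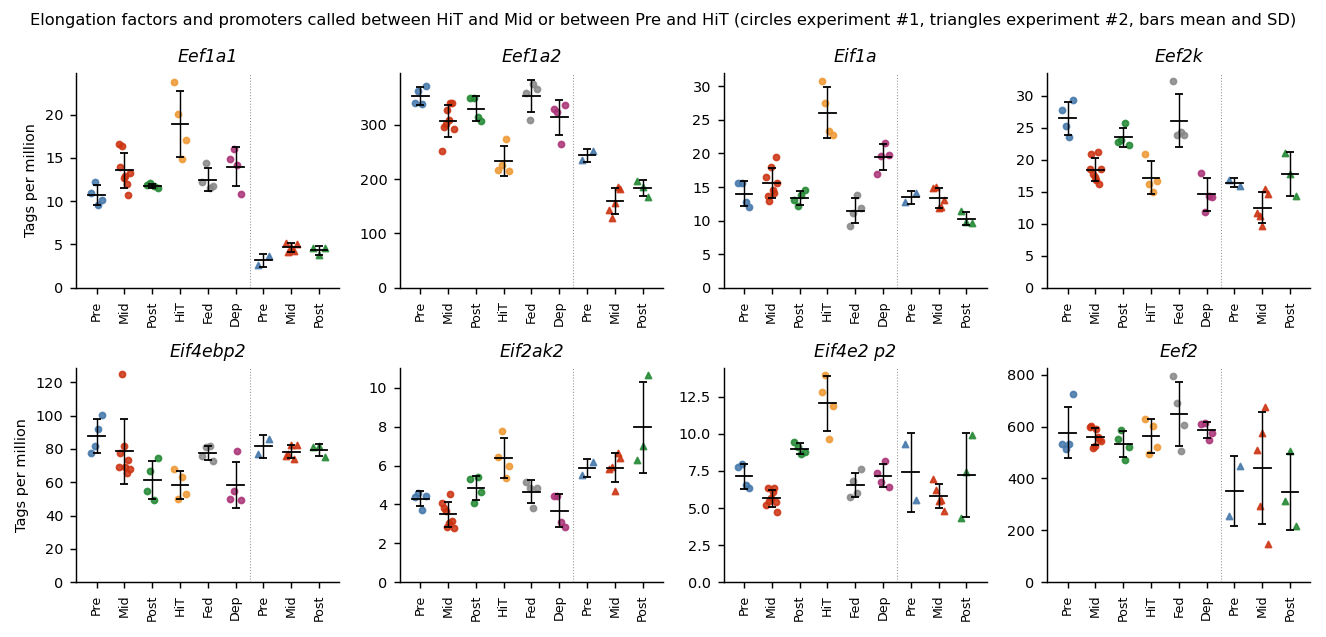
Levels in TPM of 8 promoters, 1 point per library, with circles for experiment #1, triangles for experiment #2, and bars for the mean and SD. In experiment #1 the HiT mean is highest for *Eef1a1*, *Eif1a*, *Eif2ak2* and *Eif4e2* p2 and lowest for *Eef1a2*, while *Eef2* overlaps among all groups.

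Higher in Mid than in both HiT and Fed were *Eif2b4* p2, *Eif3a*, *Eif3c*, *Eif3e*, *Eif3j1* and *Eif3j2*, 6 members beside 6.37% of all promoters, and 5 of these encode eIF3 subunits, which hold 14 of the 64 promoters. Lower than in both were *Eef1akmt2*, *Eef1e1*, *Eif2ak2* and *Eif4e* p2, 4 members beside 6.41%. Requiring both Pre to Mid and Mid to Post as well left *Eif3a* as the single higher member (4.03% of all promoters) and *Eef1akmt2*, *Eef1e1* and *Eif4e* p2 as the lower ones (3.62%). *Eif3a* and *Eef1akmt2* lost the HiT to Mid call with a replicate block and without TMM scaling. *Eif3c*, *Eif3e*, *Eif3j1* and *Eif3j2* also lost it without TMM scaling, which left no eIF3 promoter higher than in both HiT and Fed. *Eif3c* and *Eif3j2* lost it with the block too, and *Eif3c*, *Eif3j1* and *Eif3j2* with the compared groups alone. *Eif3j1* and *Eif3j2* share near-identical sequence. *Eef1akmt2* also lost the Pre to Mid and Fed to Mid calls with the block. Its Pre to Mid call was lost without TMM scaling, and without Mid 4, Mid 8, Pre 1, Pre 2 or Pre 3. Its Fed to Mid call was lost without Fed 1 or Mid 8. *Eef1e1* lost the Fed to Mid call without Fed 1, 3 or 4 or Mid 2, 3, 4, 7 or 8. It also lost that call with the compared groups alone and without TMM scaling. *Eif4e* p2 held its 4 calls whichever single library was left out. All of these comparisons share the Mid libraries.

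Comparing Mid with Dep asked what keeping fasted mice from torpor changed. No member was called from Mid to Dep by edgeR or DESeq2, beside 2.03% of all promoters by edgeR (1.16% higher and 0.872% lower), and 14 had an unadjusted p below 0.05. Median absolute log2 fold changes were 0.10 over the members and 0.13 over all promoters. *Eif3a*, for example, had 83.5, 78.8, 82.7 and 92.6 TPM in Dep, inside the Mid range (-0.01 ± 0.07, FDR 0.952), and *Eif4e* p2 had 6.75, 6.34, 5.83 and 7.23, overlapping its lower end (-0.27 ± 0.13, FDR 0.258). The lowest and highest member values were -0.44 ± 0.15 at *Eif4ebp2* (FDR 0.124) and 0.34 ± 0.11 at *Eif4e2* p2 (FDR 0.082). Against Pre, Dep had 16 members higher and 10 lower, 40.6% beside 25.8% of all promoters (13.7% higher and 12.1% lower), and 8 and 12 with upper-quartile scaling (10.9% and 17.1%) or 0 and 7 without TMM scaling (3.39% and 10% of all promoters). Food, touching and day changed together between Pre and Dep and cannot be told apart. *Eef2k* fell by 0.86 ± 0.12 on the log2 scale there (FDR 1.36e-05), to 17.99, 11.85, 14.35 and 14.15.

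Within a gene, the share of tags at the leading promoter does not depend on scaling between libraries. Exact two-sided permutation tests over libraries of experiment #1, adjusted over 16 tests, found a different share in 12, and the smallest p that 4 against 8 libraries allow is 0.00404. *Eif4e2* p1 held 79.7% ± 1.96 of the gene's tags in Mid (SD, n = 8), 75.3% ± 1.90 in Pre (n = 4), 69.1% ± 2.73 in Post (n = 4) and 66.6% ± 3.31 in HiT (n = 4). Every Mid library lay above all Post and HiT libraries (exact permutation p = 0.00404, adjusted 0.00924, for each). *Eif2b4* p1 held 70.7% ± 1.25 in Mid, less than the 75.7% ± 1.49 in Pre, 75.8% ± 1.82 in HiT and 77.3% ± 1.82 in Fed, without overlap (exact permutation p = 0.00404, adjusted 0.00924, for each), and stayed at 70.7% ± 3.30 in Post (exact permutation p = 0.982, adjusted 0.982). *Eef1g* p1 held 92.6% ± 1.89 in Mid and 89.1% ± 0.54 in Pre (exact permutation p = 0.0162, adjusted 0.0215). *Eif4e* p1 held 61.5% ± 4.28 in Mid and 46.1% ± 6.15 in Fed (exact permutation p = 0.00404, adjusted 0.00924), and the other *Eif4e* comparisons did not pass. Shares were not tested in experiment #2. There *Eif2b4* p1 held 80.5% and 87.3% in Pre, overlapping the 81.3% to 85.7% in Mid. *Eif4e2* p1 ranged from 83.8% to 87.0% in Mid, above 76.7% and 82.2% in Pre but inside the 78.9% to 87.8% of Post. *Eef1g* p1 held 87.8% to 93.1% in Mid, above 84.5% and 84.7% in Pre. The share of *Eif4e* p1 differed by experiment, being 23.0% ± 4.51 in Pre of experiment #2 (n = 2) against 56.6% ± 4.28 in experiment #1.

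**Figure D5:**
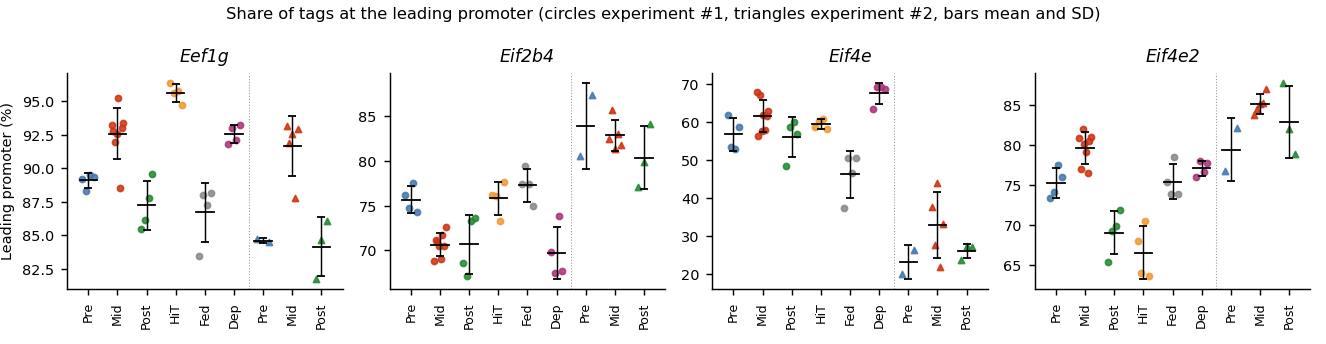
Percent of each gene's tags at its leading promoter for the 4 genes with 2 promoters, 1 point per library, with circles for experiment #1, triangles for experiment #2, and bars for the mean and SD. In experiment #1 the Mid share of *Eif2b4* lies below Pre, HiT and Fed, and that of *Eif4e2* lies above Post and HiT.

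Of the 9 members with a TOP-like start, 2 were higher (*Eif3e* and *Eif4a2*) and 1 lower (*Eif3i*) from Pre to Mid, with a median log2 fold change of -0.03, beside 7 higher and 10 lower of the 52 others, with a median of 0.06. The others include *Eef1a1*, *Eef1b2* and *Eef1g* p1, which were read as starting at T in a pyrimidine run. From Fed to Mid 3 were higher and 1 lower, with a median of 0.02, beside 18 higher and 6 lower of the 52 others (median 0.13). From HiT to Mid 1 was higher and 0 lower, with a median of 0.04, beside 8 higher and 18 lower of the others (median -0.01). Over all genes 215 promoters had such a start. Of these, 53 were higher and 15 lower from Fed to Mid (median 0.09), beside 1475 and 1802 of 9103 promoters with another start (median -0.01). From HiT to Mid 24 were higher and 74 lower (median -0.04), beside 1736 and 1944 of the 9103 (median 0.02).

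Other genes of translation and its control were taken from a list of 41 symbols, of which 36 had a promoter. *Mars* and *Mars1* in it name the same gene. From Pre to Mid 14 were higher, 2 lower and 20 not called, beside 15.4% and 14.8% of all promoters higher and lower, with a median log2 fold change of 0.13. From Mid to Post 3 were higher and 12 lower, beside 17.5% each. Other scalings were not run for this list. *Eif4ebp1*, the main 4E-BP of muscle, rose in Mid by 1.03 ± 0.14 (FDR 4.41e-06), while its relative *Eif4ebp2* was not called. *Ppp1r15a*, whose product removes the phosphate from eIF2α, rose by 1.51 ± 0.16 (FDR 1.72e-07), and *Atf4*, a transcription factor translated when eIF2α is phosphorylated, by 0.89 ± 0.12 (FDR 3.06e-06). *Sesn1* (2.19 ± 0.25, FDR 4.95e-07) and *Ddit4* (2.65 ± 0.43, FDR 5.07e-05), inhibitors of mTORC1, rose most, and *Mtor* rose by 0.54 ± 0.09 (FDR 6.42e-05). Over the 64 factor promoters the same values ran from -0.86 to 0.70. From Fed to Mid 16 of the 36 were higher and 4 lower, beside 16.6% and 18.6%. From Pre to HiT 11 were higher and 2 lower, beside 18.5% and 14.9%. *Eif4ebp1* rose there by 1.30 ± 0.15 (FDR 6.19e-07) and *Sesn1* by 1.58 ± 0.26 (FDR 3.92e-05). *Ppp1r15a* (0.865 ± 0.17, FDR 0.00031) and *Atf4* (0.63 ± 0.13, FDR 0.000495) rose too, whereas *Ddit4* and *Mtor* were not called. In HiT to Mid *Sesn1*, *Ppp1r15a*, *Ddit4* and *Mtor* were called higher, and *Eif4ebp1* and *Atf4* were not called. From Mid to Dep 1 was higher, *Impact*, an inhibitor of the eIF2α kinase GCN2 (0.58 ± 0.13, FDR 0.0267).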

How the data were processed

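Soleus RNA of 38 mice was profiled by CAGE without PCR amplification (nAnT-iCAGE). Per the labels and the study's methods, the authors trimmed reads, aligned them to mm10 with bwa and hisat2, and clustered tag starts into promoters. The deposited table holds tag counts per promoter and library, with TPM made by the authors from them; tests used the counts and no sample column was left unmapped (0). Aligner versions are not given in the sources used here. Promoters were assigned to genes of GENCODE vM21 within 500 bp. Each experiment was fitted on all its promoters with edgeR 4.0.16 (R 4.3.3; TMM, quasi-likelihood F test, Benjamini-Hochberg FDR over all promoters tested), with the sample group as the factor. Promoter shares were tested by exact permutation in SciPy 1.17.1. Figures used matplotlib 3.10.9. DESeq2 1.42.0, other scalings and sample sets were alternatives. The genes named were the 5 with the largest change per direction and main comparison among those called, a core list and genes with 2 promoters. Replicate numbers mark different mice. Scripts were tested on simulated counts. The members and gene lists were chosen with earlier results of these data known. Depth was at least 9359994 tags per library. The tests behind the FDR values set changes against the spread between mice, estimated over all groups of an experiment together.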

Additional observations from a re-analysis of the deposited data

Results flagged for a closer look

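Single libraries stood apart from the rest of their group at several promoters, by Dixon's gap test at its 95% level over groups of 4 to 10 libraries. Of 266 groups checked 15 were picked out (5.64%), and chance picks about 1 in 20.

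Mid 3 had the lowest *Eef1g* p1 level of its group, 44.18 TPM against 58.0 to 64.85, and the highest of *Eif3j2* (18.11 against 12.35 to 14.19), *Eif4a1* (24.29 against 13.51 to 18.57) and *Eif4ebp2* (124.8 against 65.41 to 81.71). Pre 4 was highest for *Eef1g* p1 (83.5 against 65.81 to 66.73) and *Eef2* (724.7 against 515.2 to 533.8). *Eef1akmt1* had 15.8 in HiT 3, the others 9.722 to 10.65, and *Eef2k* had 32.39 in Fed 1, the others 23.84 to 24.32. *Eef1g* p2 had 8.399 in Mid 6, the others 3.168 to 4.988.

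In experiment #2, *Eef1g* p2 had 5.165 in Mid 10, the others 2.937 to 3.547, and the share of *Eef1g* tags at p1 was 87.75% in the same library, the others 91.89% to 93.11%. Mid 12 was highest for *Eif3a* (167.0 against 131.9 to 141.7) and *Eif4a2* (268.8 against 198.6 to 211.0), and Mid 9 for *Eif2b4* p1 (46.33 against 36.71 to 38.08). The share of *Eif4e* tags at p1 was 63.24% in Dep 1 of experiment #1, the others 68.57% to 68.99%.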

How the results depend on the processing

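Signs of the named promoters were checked for Pre to Mid, Mid to Post, HiT to Mid and Fed to Mid of experiment #1. The settings were DESeq2, upper-quartile scaling, no TMM scaling and 1 library left out. No called fold change of a promoter named in the text changed sign there, while some that were not called did. Scaling turned the balance of calls from Pre to Dep (16 higher and 10 lower, 8 and 12 with upper-quartile scaling, 0 and 7 without TMM scaling) and from Fed to Mid (22 and 9, then 2 and 6 without TMM scaling). The members' median log2 fold change turned from Pre to Mid (0.05, then -0.02 with upper-quartile scaling and -0.03 without TMM scaling), and from Pre to HiT without TMM scaling (0.04, then -0.14, where that of all promoters went to -0.13). Without TMM scaling, members called were 7 (Pre to Mid, beside 13.5% of all promoters), 9 (Mid to Post, 15.1%), 8 (HiT to Mid, 21.6%), 8 (Fed to Mid, 20.2%), 8 (Pre to HiT, 18.3%), 0 (Pre to Fed, 0.0557%) and 7 (Pre to Dep, 13.4%). Fitting the compared groups alone left 19 from Fed to Mid (beside 26.4% of all promoters) and 1 from Pre to Fed (5.87%). From Pre to Post 1 member was called by edgeR's likelihood ratio test (beside 2.28% of all promoters), 2 by DESeq2 (3.03%) and 2 in a joint fit of both experiments (5.68%). In experiment #2, Pre to Mid gave 1 call within lane 3 (beside 5.13% of all promoters) and 3 among promoters within 100 bp. The causes were not tested. Leaving out 1 library gave 1 to 11 calls from Pre to Fed (11 without Fed 3, 1 without Fed 1, Fed 2 or Pre 1, 2 without Pre 2 and 3 without Pre 3), 0 to 2 from Mid to Dep (1 without Dep 1, 2 without Dep 3), 17 to 21 from Pre to Dep (17 without Pre 3 or Dep 2), and, from Pre to Mid in experiment #2, 0 to 6 (0 without either Pre library, 2 without Mid 12 and 3 without Mid 9, 11 or 13). Of the calls in experiment #1, 13 of 23 (Pre to Mid), 12 of 18 (Mid to Post), 21 of 30 (HiT to Mid) and 20 of 31 (Fed to Mid) held in every such fit. The share of all promoters called was not taken for these fits. *Eif4ebp2* from HiT to Mid was lost without Mid 3, HiT 2 or HiT 4. The *Eif4e* share difference from Pre to Mid ran from 3.626 to 6.555 points and passed an unadjusted exact permutation p of 0.05 without Pre 1, and that from Mid to Post ran from -6.971 to -3.039 and passed without Mid 2 (-6.353 points).

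Replicate numbers did not pair samples: deviations of same-numbered libraries had a mean correlation of -0.03 over 60 pairs, and others 0.01 over 260. With a replicate block, 18 members were called from Pre to Mid (beside 29.2% of all promoters) and 22 from Fed to Mid (26.4%). It called 2 from Mid to Dep (3.78%) and 4 from Pre to Fed (9.28%).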
